A study of Mus musculus with 2 samples.

Results

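The macrophage and myeloid surface receptors studied here were 10 genes: Mrc1, Cd68, Csf1r, Adgre1, Cd14, Fcer1g, Tyrobp, Cd163, Itgam and Laptm5. They were chosen by name, as receptors of macrophages and other myeloid cells together with the adaptors these receptors signal through, and every non-control array probe whose RefSeq accession is paired with one of them was taken. This gave 14 probes for 9 of the 10 genes among 18952 named genes on the array. Cd68, a lysosomal glycoprotein of macrophages, was not analysed here because no probe was paired with it. The probes of 8 of the 9 genes were detected, which means well above background in the same pool on both arrays, and these 8 stood among 10435 detected genes. Itgam was not detected.

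The tissue was dorsolateral prostate of FVB/N mice aged 6 months. Wild-type RNA, pooled from 6 mice, was compared with RNA pooled from 6 ARR2PB-miR32 transgenic mice of the same strain and age, and no other allele or treatment is named in the labels. The transgene's promoter, ARR2PB, is built from the probasin gene and known for androgen-driven activity in the epithelium of the prostate. The same pools were co-hybridised to 2 arrays on 1 slide as a dye swap: the wild-type pool carried Cy5 and the transgenic pool Cy3 on array 1, and the reverse on array 2. Each genotype is 1 pool, so the arrays are technical repeats, no test of genotype is possible and no p-value is given. Each ± is the SD over the 2 arrays, which holds dye and array differences but no difference between animals.

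Macrophages reside in the connective tissue of most organs, the prostate included, where they take up debris and sense microbes and other cells through surface receptors. Csf1r receives the growth factor signals that keep macrophages alive. Mrc1 and Cd163 are scavenger receptors for glycoproteins and for haemoglobin bound to haptoglobin. Cd14 presents bacterial lipopolysaccharide to Toll-like receptors, and Itgam is the alpha chain of the leukocyte integrin complement receptor. Many other myeloid receptors have no signalling tail of their own and rely on Fcer1g or Tyrobp, a pair of small membrane adaptors whose ITAM motifs recruit the kinase Syk. Adgre1, the F4/80 antigen, and Laptm5, a lysosomal membrane protein of haematopoietic cells, complete the group.

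The transgene product is mature miR-32, shown because its seed, bases 2 to 8, is what defines the sequence family it belongs to. In the RefSeq annotation of GRCm38.p6 this seed was shared by 6 mature mouse microRNAs, and miR-25, a relative that differs outside the seed, is printed beside it. The capitals mark the seed.
mmu-miR-32-5p: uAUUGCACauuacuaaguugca
mmu-miR-25-3p: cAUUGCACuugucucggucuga

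Promoter windows of 250 bases before the start site, from RefSeq on GRCm38.p6, were matched for 6 of the 10 genes (Fcer1g, Mrc1, Laptm5, Cd163, Itgam and Cd68). Both strands were searched for the letters GAGGAA, which form the core of sites bound by the myeloid factor PU.1. This core was present in 4 of the 6 windows and in 23.1% of 27025 promoter windows of the same length. A longer form that contains it, GAGGAAGT, was present in 0 of the 6 and in 2.44% of all windows. Mrc1 is printed because it alone among the 10 genes passed the size rule given further on, and Fcer1g because its ratio after loess agreed best between the arrays. The capitals mark the core, which in Mrc1 lies on the reverse strand and so reads TTCCTC, with its far end 180, 167 and 35 bases before the start. Fcer1g has no match. A match is a description of letters and not of binding. The Mrc1 window lies at chr2:14229164-14229413 on the plus strand and that of Fcer1g at chr1:171234350-171234599 on the minus strand, each printed in the direction of the gene.
Mrc1: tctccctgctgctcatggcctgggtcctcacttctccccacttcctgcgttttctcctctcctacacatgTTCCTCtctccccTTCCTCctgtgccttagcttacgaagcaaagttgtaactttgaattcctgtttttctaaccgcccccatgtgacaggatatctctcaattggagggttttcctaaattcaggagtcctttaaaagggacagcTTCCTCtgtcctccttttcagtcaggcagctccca
Fcer1g: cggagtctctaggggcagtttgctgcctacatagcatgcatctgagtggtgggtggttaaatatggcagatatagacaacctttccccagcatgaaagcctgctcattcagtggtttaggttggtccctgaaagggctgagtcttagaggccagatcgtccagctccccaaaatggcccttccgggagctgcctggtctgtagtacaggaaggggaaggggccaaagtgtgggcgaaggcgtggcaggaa

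Across the group, the transgenic pool gave lower signals than the wild-type pool. All 8 detected genes had a ratio of transgenic over wild type below 0 on the log2 scale on each array, where 28% of all detected genes did. Their mean ratios ran from -0.67 for Mrc1 to -0.27 for Laptm5, with a median of -0.48 beside -0.06 for all detected genes. By array the medians were -0.61 and -0.40 beside -0.03 and -0.08. In bulk tissue, fewer cells of a type and less RNA per cell cannot be told apart.

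The differences were small, and few passed the size rule, by which each of the arrays must show 1.5-fold or more with the same sign. Of the 8 genes, 1 passed it as lower (Mrc1), 0 passed as higher and 7 did neither, where 1.3% of all detected genes passed as lower and 0.91% as higher. None reached 2-fold on each array, a level that 0.355% of all detected genes passed as lower. On array 1 alone 4 of the 8 (Mrc1, Csf1r, Adgre1 and Tyrobp) were past 1.5-fold lower, against 5.35% of all detected genes, and on array 2 alone Mrc1 was, against 15.0%.

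Detection was uneven between the pools and touches every value of the group. Only Csf1r, Fcer1g and Tyrobp were well above background in both pools on both arrays. For the other 5 detected genes this held on both arrays in wild-type RNA, but in transgenic RNA on array 1 only, when that pool carried Cy3. Genes that entered through the wild-type pool alone include those that had to be lower in the other, so the counts over the 8 describe them and support nothing further. Among all genes detected in both pools 22.0% were below 0 on each array, and among those detected in the wild-type pool alone 36.3% were. The Cy5 signal of array 2 was weak: the transgenic pool was well above background at 21.1% of spots there and at 58.3% on array 1, while the wild-type pool was at 42.1% on array 1 and 57.0% on array 2. Array 1 and array 2 ratios showed no correlation over the 10435 detected genes (r = -0.03, across genes that share dyes and slide and are not replicates).

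**Figure D1:**
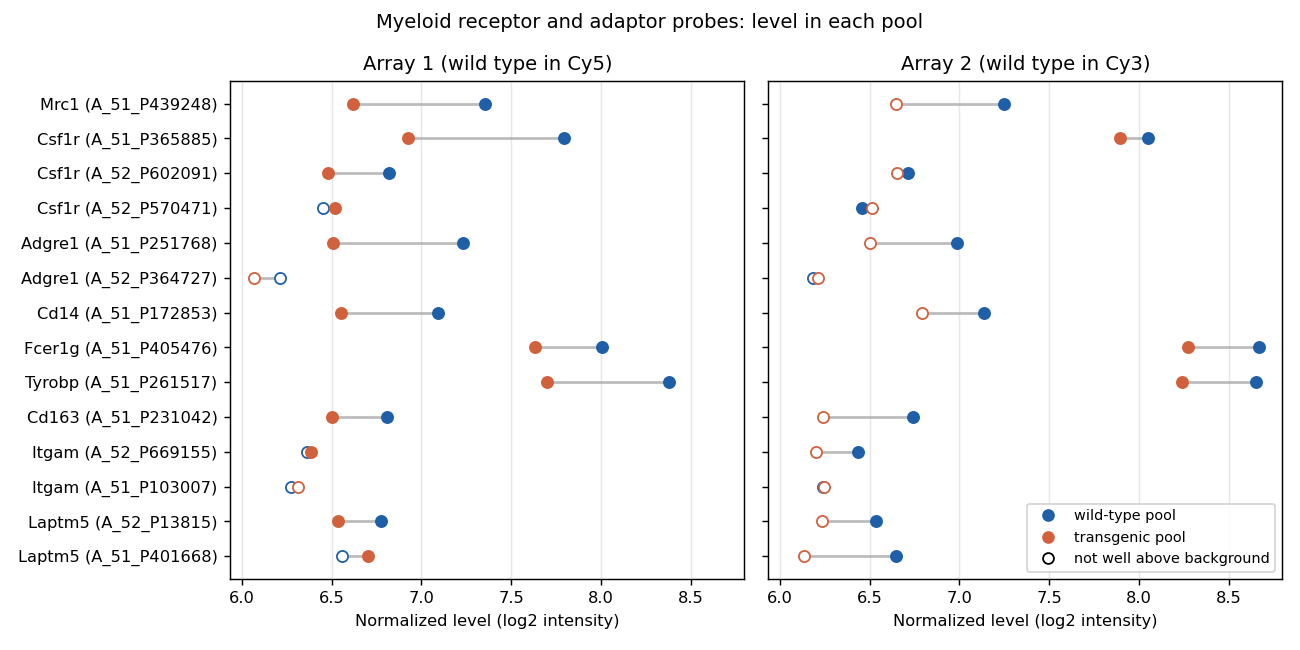
Normalized level (log2 intensity, horizontal axis) of each of the 14 probes in the wild-type pool (blue) and the transgenic pool (orange), with array 1 on the left and array 2 on the right. Open circles are not well above background; on array 2 only 3 transgenic points are filled (Csf1r, Fcer1g and Tyrobp), and at each of the 9 detected probes the wild-type point lies to the right.

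Mrc1, the macrophage mannose receptor, was measured by 1 probe (A_51_P439248, accession NM_008625). Its normalized level was 7.35 and 7.25 in the wild-type pool on arrays 1 and 2 and 6.62 and 6.65 in the transgenic pool, all in log2 intensity. Both transgenic levels were below both wild-type levels. This and like statements below compare repeats of 1 pool per genotype, and their share over all detected genes was not computed. The log2 ratio was -0.73 on array 1 and -0.60 on array 2, a mean of -0.67 ± 0.10, or 1.59-fold lower. The second array thus passed the size rule by a narrow margin, its limit being -0.58. Of all detected genes, 3.19% had a lower mean. Before normalization the wild-type spot exceeded its local background by 130 and 119.5 intensity units and the transgenic spot by 43.5 and 1.5, so that on array 2 the transgenic signal was close to its background.

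Cd163, the haemoglobin scavenger receptor (A_51_P231042, NM_053094), was dimmer. Wild-type levels were 6.81 and 6.74 and transgenic levels 6.50 and 6.24. The 2 pools did not overlap, and the gap was wider on array 2. That order rested on background subtraction, since without it the ratios were -0.32 on array 1 and -0.05 on array 2. The ratio of -0.30 and -0.50 gave a mean of -0.40 ± 0.14, and 10.4% of all detected genes had a lower one. The transgenic signal over background was 32 units on array 1 and -2 on array 2, where the spot did not exceed its background.

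Adgre1, the adhesion receptor that defines many tissue macrophages in the mouse, had a brighter probe (A_51_P251768, NM_010130) with wild-type levels of 7.23 and 6.99 and transgenic levels of 6.51 and 6.50. All transgenic values lay below all wild-type values. Its ratio was -0.72 and -0.49, a mean of -0.61 ± 0.17 or 1.52-fold lower, and array 2 fell short of the size rule. The transgenic spot exceeded its local background by 35 units on array 1 but by 1 on array 2, where it was not well above background. A second Adgre1 probe (A_52_P364727) was not detected and gave -0.15 and 0.03. The 2 probes therefore differ, and only the detected one carries the value for the gene.

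Csf1r, the receptor for the growth factors Csf1 and Il34, showed the widest gap between arrays after loess. The brightest of its 3 probes (A_51_P365885, NM_001037859) had wild-type levels of 7.80 and 8.05 and transgenic levels of 6.93 and 7.90. On array 2 the transgenic level exceeded the wild-type level of array 1, so the pools overlap across arrays although each array put the transgenic pool lower. The ratio was -0.87 on array 1, the lowest of the group, and -0.15 on array 2, the nearest to 0, a mean of -0.51 ± 0.51. The SD is about as large as the mean. The gap depended on the processing, since median centring gave -0.88 on array 1 and -1.29 on array 2. A second probe (A_52_P602091) was also detected and gave -0.34 and -0.06, smaller on both arrays. The third (A_52_P570471) was not detected and gave 0.07 and 0.06.

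Cd14, the lipopolysaccharide co-receptor (A_51_P172853, NM_009841), had wild-type levels of 7.09 and 7.14 and transgenic levels of 6.55 and 6.79. The pools did not overlap. On array 2 the transgenic spot exceeded its local background by 8 units and was not well above it. The ratio of -0.54 and -0.35 gave a mean of -0.44 ± 0.14, or 1.36-fold lower, short of the size rule on both arrays. Of all detected genes, 8.27% had a lower mean.

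Fcer1g and Tyrobp, the ITAM adaptors, were well above background in both pools on both arrays and so rest on the most complete signals. Fcer1g (A_51_P405476, NM_010185) had wild-type levels of 8.01 and 8.67 and transgenic levels of 7.63 and 8.27. Levels moved with the array by more than with the genotype. The ratio after loess was -0.38 and -0.40, a mean of -0.39 ± 0.01, the smallest SD of the 8 genes, or 1.31-fold lower. That closeness rested on loess, since median centring gave -0.40 and -1.75. Tyrobp (A_51_P261517, NM_011662) had wild-type levels of 8.38 and 8.65 and transgenic levels of 7.70 and 8.24. Both transgenic levels were below both wild-type levels. Its ratio was -0.68 and -0.41, a mean of -0.55 ± 0.19 or 1.46-fold lower, with 4.94% of all detected genes lower, against 11.2% for Fcer1g. After loess the ratios of the pair differed by more on array 1 than on array 2. By the scanner software's ratios, given below, they differed by more on array 2.

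Laptm5, the lysosomal protein, had the ratio nearest to 0. Its used probe (A_52_P13815, NM_010686) had wild-type levels of 6.78 and 6.54 and transgenic levels of 6.54 and 6.24, so that the pools met across arrays. The ratio was -0.24 and -0.30, a mean of -0.27 ± 0.04, or 1.21-fold lower, and 19.7% of all detected genes were lower. A second probe (A_51_P401668) was not detected and disagreed between arrays, at 0.15 and -0.51.

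Itgam, the integrin alpha chain carried by monocytes, macrophages and neutrophils, was read by 2 probes, neither of them detected. A_52_P669155 gave 0.02 and -0.24 and A_51_P103007 gave 0.04 and 0.00. No direction is given for it.

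**Figure D2:**
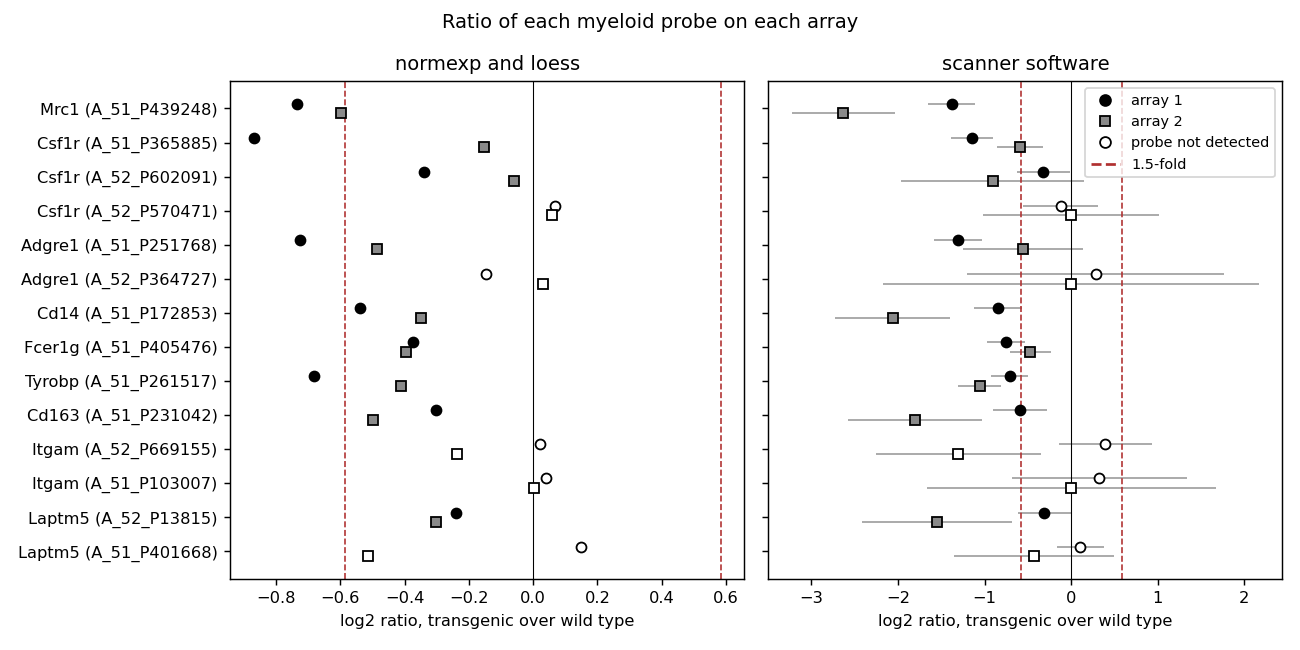
Log2 ratio of transgenic over wild type (horizontal axis) of each of the 14 probes on array 1 (circles) and array 2 (squares), by normexp and loess on the left and by the scanner software on the right, where bars are the software's own error; open symbols are probes not detected and dashed lines mark 1.5-fold. All 9 detected probes lie left of 0 on both arrays in both panels, with Mrc1 alone past the 1.5-fold line on both arrays in the left panel.

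The arrays carry repeated spots that show how far a ratio moves within an array. Of 245 probes printed 10 times, those within the brightness range of the 14 probes had a median SD of 0.17 (163 probes, array 1) and 0.26 (147 probes, array 2) in log2 ratio. On array 1, 6 of the 8 genes lay more than 2 such SDs from 0, the others being Laptm5 and Cd163. On array 2 only 1, Mrc1, did. These SDs describe single spots and not the pools. The share of all detected genes past these limits was not computed, so the counts describe the 8 genes alone.

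The scanner software's own ratios came from signals it had background-subtracted and dye-normalized. Their means were further from 0 than those after loess for each of the 8 genes, bright or dim, and their errors were wider for the dim probes. Mrc1 was at -1.38 ± 0.27 and -2.63 ± 0.60 (± here is the software's error in log2), and Cd14 at -0.84 ± 0.28 and -2.06 ± 0.67. Fcer1g, a bright probe, was at -0.75 ± 0.22 and -0.47 ± 0.23, and Tyrobp at -0.71 ± 0.22 and -1.06 ± 0.25. Laptm5 on array 1, at -0.31 ± 0.31, and Adgre1 on array 2, at -0.56 ± 0.70, were within 1.01 and 0.801 errors of 0. By these ratios 5 of the 8 genes passed the size rule as lower (Mrc1, Csf1r, Cd14, Tyrobp and Cd163), where 6.01% of all detected genes did. The authors' deposited table, which holds only 3 of the genes, gave Csf1r -1.15 and -0.62, Fcer1g -0.75 and -0.49 and Tyrobp -0.71 and -1.08. Of these 3 genes 2, Csf1r and Tyrobp, passed the rule as lower in the authors' deposited table, beside 1.94% of its 6127 named and detected genes.

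**Figure D3:**
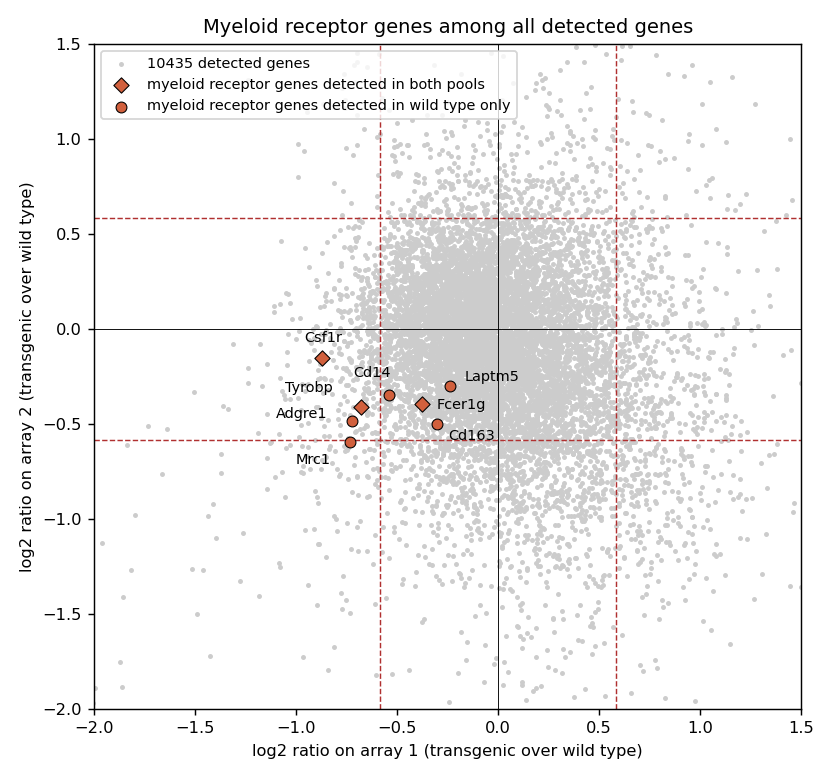
Log2 ratio of transgenic over wild type on array 1 (horizontal) against array 2 (vertical) for 10435 detected genes in grey, of which 163 lie outside the plotted range, with the 8 detected receptor and adaptor genes in orange and dashed lines at 1.5-fold. All 8 lie below and to the left of 0, and Mrc1 alone lies past both dashed lines.

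The choice of background correction and normalization moved the sizes. The mean ratio was below 0 in all 78 values that the 8 genes had over 11 alternatives to the processing, though Csf1r, Fcer1g and Tyrobp alone had a value in each. Dropping the detection filter repeats the values of the processing used here, and other choices of probes or genes repeat most of them. The 78 are therefore not separate results. Under the processing used here 59.4% of all detected genes had a mean below 0. Adgre1 ranged from -0.94 to -0.49, Tyrobp from -1.23 to -0.41, Laptm5 from -0.93 to -0.19, Cd163 from -1.20 to -0.19 and Fcer1g from -1.07 to -0.34. The call of Mrc1 was lost without background subtraction, where its mean was -0.51. With scaling between arrays the mean stayed at -0.67 and the call was lost because array 2, at -0.56, missed the limit of -0.58. Under median centring 4 of the 8 genes passed as lower, but 5.31% of all detected genes did too and their median stood at -0.57. Laptm5 at -0.19 and Cd163 at -0.38 lay above that median, so a value below 0 shows no kept direction there.

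**Figure D4:**
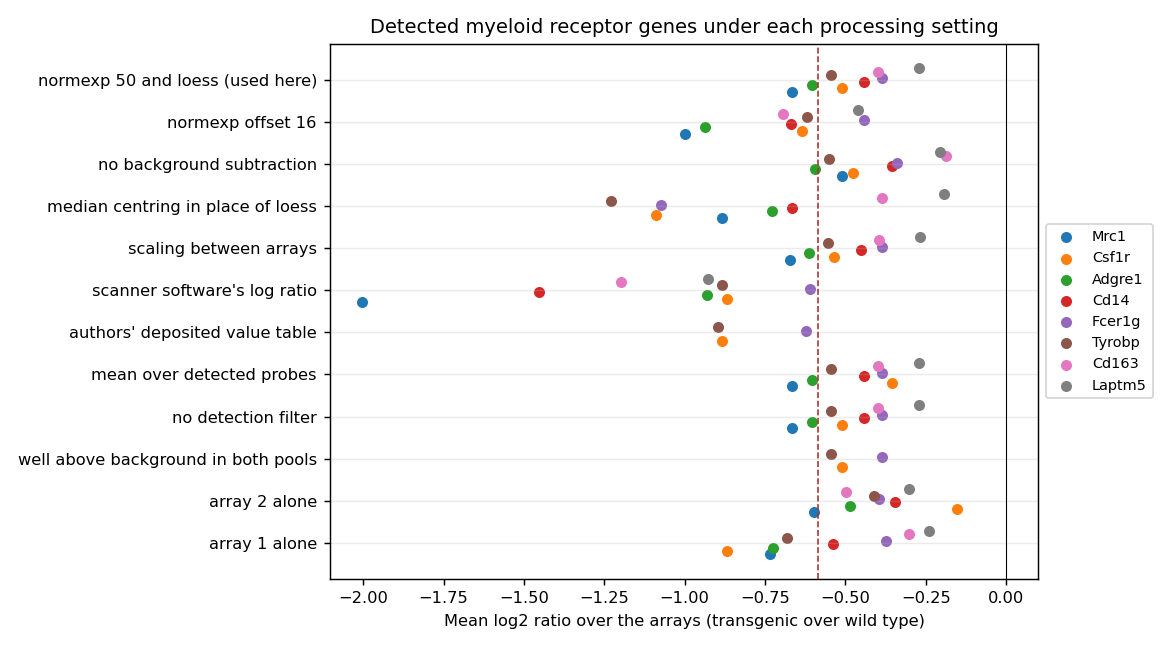
Mean log2 ratio of transgenic over wild type (horizontal axis) of the 8 detected genes under the processing used here and each alternative that changes a ratio or the set of genes; single arrays are at the bottom and the dashed line marks 1.5-fold. All points lie left of 0, the nearest being Csf1r at -0.15 on array 2 alone and the farthest Mrc1 by the scanner software.

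Genes that work with these receptors were mostly within 1.5-fold. Lists of pathway partners were set up by role and held 161 genes, of which 151 were on the array and 75 were detected. Of the 75, 5 passed the size rule as lower, 1 as higher and 69 did neither, with a median of -0.17 beside -0.06 for all detected genes, 1.3% of which passed as lower. Of the 75, 34 were detected in both pools, 2 of them lower by the rule, and 41 in the wild-type pool alone, 3 of them lower (Clec10a, Hp and Ccl8), so that the limit on counts given for the receptors holds for the lists too. By role, the medians ranged from -0.46 for macrophage chemokines and receptors to -0.02 for ligands of Csf1r and other cytokine receptors.

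Among the scavenger and lectin receptors related to Mrc1 and Cd163, 9 of 21 genes on the array were detected and 1 passed as lower. This was Clec10a, a galactose-type lectin of macrophages and dendritic cells, at -0.90 ± 0.14. Clec4a2 was at -0.58 ± 0.33, Scarb1, the high-density lipoprotein receptor, at -0.57 ± 0.42 and Folr2, a folate receptor of resident macrophages, at -0.51 ± 0.37. The median of the 9 was -0.30. Msr1, Marco and Siglec1, further scavenger and lectin receptors of macrophages, were not detected. Of the genes for haemoglobin uptake and iron handling, 10 of 11 were detected and 1 passed as lower, haptoglobin (Hp), whose complex with haemoglobin is the ligand of Cd163, at -1.16 ± 0.10. The iron storage chains Ftl1 at -0.53 ± 0.72 and Fth1 at -0.40 ± 0.76 differed between arrays by more than their means. Lrp1 was at -0.28 ± 0.29.

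The Fc receptors and other partners of the ITAM adaptors gave little signal. Of 17 on the array 6 were detected, none passed in either direction and their median was -0.10. Fcgrt, the neonatal Fc receptor, was at -0.53 ± 0.32 and the inhibitory receptor Pirb at -0.43 ± 0.21. Trem2 and Clec5a, receptors that signal through Tyrobp, were at 0.32 ± 0.24 and 0.59 ± 1.42, the latter with arrays of opposite sign. Fcgr2b, Fcgr3 and Fcgr4 were not detected. Downstream of the adaptors, 6 of 16 kinases and signalling proteins were detected with a median of -0.13 and none past the rule. Lyn, a Src family kinase, was at -0.28 ± 0.49, the lipid phosphatase Inpp5d at -0.24 ± 0.02, the tyrosine phosphatase Ptpn6 at -0.14 ± 0.38 and the inhibitory receptor Sirpa at 0.47 ± 0.99. Syk, Fgr and Btk were not detected.

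Among ligands of Csf1r and other cytokine receptors, 6 of 12 were detected and 1 passed as higher. This was Il3ra, the alpha chain of the interleukin-3 receptor, at 0.86 ± 0.15. Csf2ra was at -0.22 ± 0.04, Il4ra at -0.14 ± 0.08 and Ifngr1 at 0.23 ± 0.52. Il34 was not detected. In the Toll-like receptor list around Cd14, 12 of 23 were detected, with a median of -0.26, and 1 passed as lower. This was Lbp, the lipopolysaccharide-binding protein that hands its cargo to Cd14, at -0.70 ± 0.08. Ly86, a partner of Cd180, was at -0.60 ± 0.42, the inhibitor Nfkbia at -0.51 ± 0.71 and the adaptor Ticam1 at -0.32 ± 0.21. Tnf and Il1b were not detected.

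Of the leukocyte integrins and their ligands, 5 of 11 were detected and none passed. Itgb2, the beta chain that pairs with Itgam, was not detected, as Itgam was not. Itgb7 was at -0.41 ± 0.05, Icam2 at -0.07 ± 0.12, Itgb1 at 0.04 ± 0.07 and the cytoskeletal linker Tln1 at -1.19 ± 1.38, a value set by array 2. Of relatives of Adgre1 and Laptm5, 7 of 10 were detected and none passed. Adgre5 was at 0.15 ± 0.57, Laptm4a at 0.28 ± 0.80, Lamp3 at -0.22 ± 0.03 and Cd63 at -0.16 ± 0.19.

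Of 18 macrophage chemokines and receptors on the array 6 were detected, 2 of them in both pools and the others in the wild-type pool alone. The 6 were below 0 on each array, with a median of -0.46, which was -0.25 without background subtraction and -0.18 over all 18 without the detection filter. Of the 6, 2 passed as lower: Ccl8 at -1.78 ± 0.43 and Ccl6 at -0.80 ± 0.16, both chemoattractants of myeloid cells. Cxcl16 was at -0.54 ± 0.29 and Ccr2, the receptor of inflammatory monocytes, at -0.37 ± 0.12. Of 12 myeloid transcription factors 8 were detected and none passed, with a median of -0.21. Irf8 was at -0.49 ± 0.21, Nr1h3 at -0.35 ± 0.01, Cebpa at -0.34 ± 0.49 and Irf5 at -0.27 ± 0.02. Spi1, which encodes PU.1, was not detected.

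**Figure D5:**
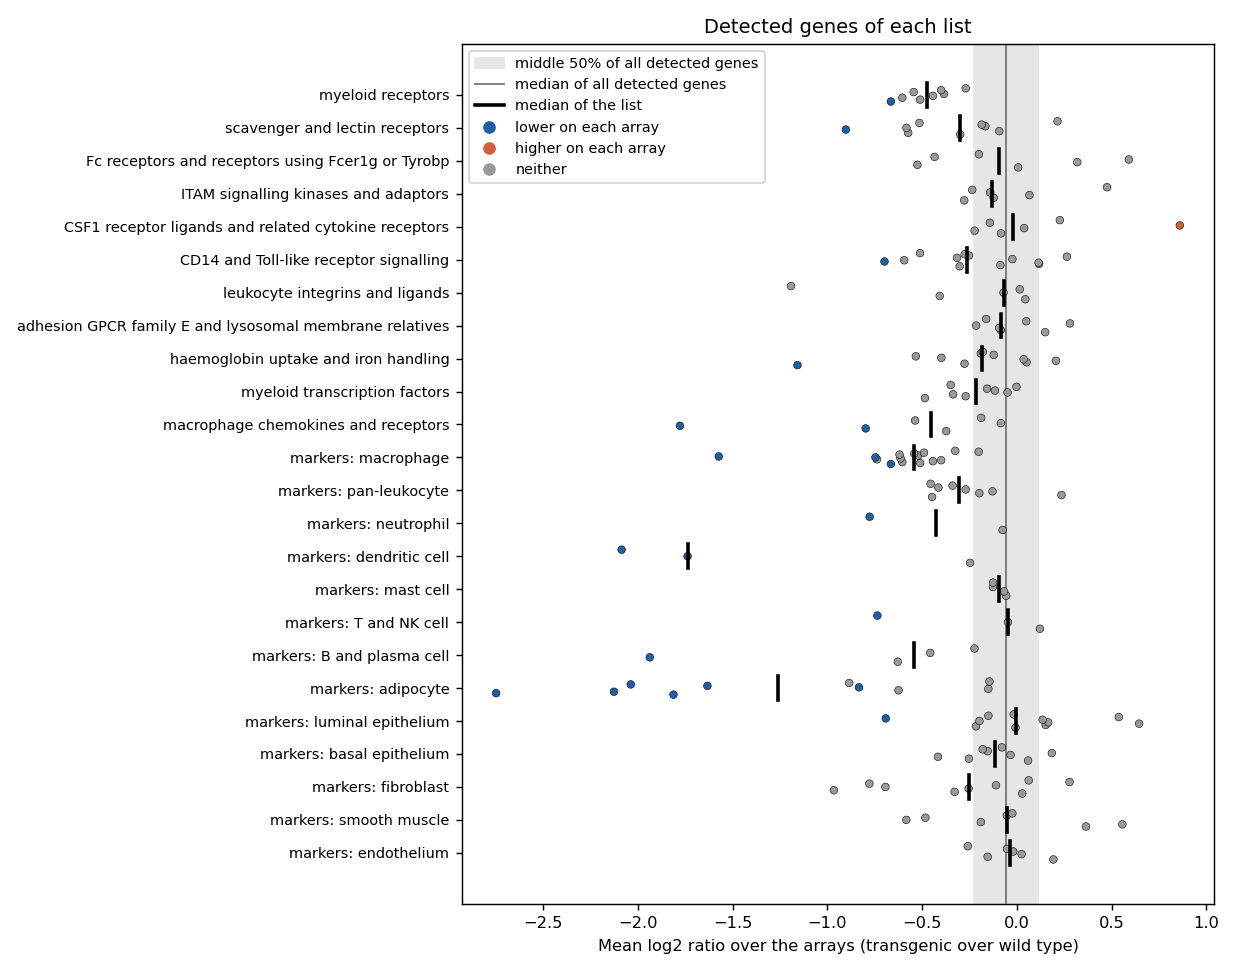
Mean log2 ratio of transgenic over wild type (horizontal axis) of each detected gene, by list, with a thick bar at each list's median, the middle 50% of all detected genes shaded from -0.23 to 0.11, and genes past the size rule in blue (lower) or orange (higher). The myeloid receptors have a median of -0.48 and the adipocyte markers one of -1.26, while luminal, smooth muscle and endothelial markers have medians between -0.05 and -0.01.

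Markers of cell types were read in the same way. The tissue carried its luminal epithelium markers, 11 of 11 detected, and 0 of 7 seminal vesicle markers was detected. Macrophage markers were detected for 15 of 15 on the array, 3 of them lower by the rule, with a median of -0.54. Leaving out the receptors already described, the other 10 markers were all below 0 on each array, where 28% of all detected genes were. Of the 10, 2 passed as lower, Lyz1 at -1.57 ± 0.21 and C1qc, a chain of complement C1q, at -0.75 ± 0.23. Of all detected genes 1.3% passed as lower. The median of the 10 was -0.58. Of these 10, 4 were well above background in both pools on both arrays, and the others were detected in the wild-type pool alone. The limit on counts given for the receptors holds here too. C1qa was at -0.74 ± 0.78. Lyz1 has a near-identical neighbour in Lyz2, which its probe may also read. Lyz2, by its own probe, was at -0.52 ± 0.06 and did not pass. The summed normalized intensity of the 15 was 10180 and 11378 in the wild-type pool and 7862 and 9086 in the transgenic pool. Apoe, an apolipoprotein at -0.20 ± 0.01, made up 66.2% and 68.1% of the wild-type sums, and without it the sums were 3443 and 3626 against 2043 and 2305. The sum of the 8 receptors and adaptors was 1484 and 1692 against 994 and 1302.

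Markers of other cell types moved with the receptors as well. Of 10 detected adipocyte markers 6 were lower by the rule, where 1.3% of all detected genes were. Of the 10, 5 were detected in both pools, with a median of -0.89. The others were detected in the wild-type pool alone, so the limit on counts given for the receptors holds here too. The median of all 10 was -1.26, and their sum was 8723 and 9824 in the wild-type pool against 3039 and 2596 in the transgenic pool. The lowest was Cfd, adipsin, at -2.75 ± 0.96, followed by the fatty acid carrier Fabp4 at -2.13 ± 0.22, the carbonic anhydrase Car3 at -2.04 ± 1.43, the hormone Adipoq at -1.81 ± 0.08, the lipid droplet protein Cidec at -1.63 ± 0.32 and the hormone Retn at -0.83 ± 0.14. The part of fat-associated tissue in the receptor values was not tested. In the dendritic cell list 3 of 11 were detected and 2 passed, Cd74 at -2.09 ± 0.47 and H2-Ab1 at -1.74 ± 0.69, genes of antigen presentation that macrophages share. Batf3, the third detected, was at -0.25 ± 0.09. The sum of the 3 was 3301 and 5800 against 875 and 1892. The defining dendritic cell markers Itgax, Flt3, Zbtb46, Xcr1 and Clec9a were not detected.

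Pan-leukocyte markers were detected for 8 of 11, none past the rule, with a median of -0.31. Ptprc, the leukocyte common antigen, was at -0.45 ± 0.15, Cytip at -0.46 ± 0.16, Arhgdib at -0.41 ± 0.49 and Rac2 at -0.34 ± 0.69. Their sum, 9714 and 9088 in the wild-type pool against 10465 and 10653 in the transgenic pool, was mostly Cd52, a small surface glycoprotein. Cd52 made up 84.2% and 84.0% of the wild-type sums and was at 0.23 ± 0.08. Its wild-type levels were 13.0 and 12.9, beside 6.83 and 6.76 for Ptprc, and which cells gave this signal was not tested. Without Cd52 the sums were 1535 and 1453 against 1204 and 1313, and the other 7 genes had a mean below 0. Of 11 neutrophil markers 2 were detected, Ltf at -0.78 ± 0.12, past the rule, and S100a9 at -0.08 ± 0.31. S100a8, Ngp, Camp, Mpo and Elane were among the 9 not detected. T and NK cell markers were detected for 3 of 11, with Ccl5 past the rule at -0.74 ± 0.06, Cd3e at 0.12 ± 0.26 and Nkg7 at -0.05 ± 0.41. B and plasma cell markers were detected for 4 of 8, with Jchain past the rule at -1.94 ± 0.16. Cd79b was at -0.63 ± 0.39, Pou2af1 at -0.46 ± 0.17 and Blnk at -0.22 ± 0.56. Ltf, Ccl5 and Jchain were each detected in the wild-type pool alone, so the limit on counts given for the receptors holds for them too. Of all detected genes 1.3% passed as lower. Mast cell markers were detected for 4 of 7, none past the rule, with a median of -0.10.

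Epithelial, smooth muscle and endothelial markers had medians near that of all genes, in part from arrays of opposite sign. The medians were -0.01 over 11 luminal markers, -0.12 over 8 basal, -0.05 over 7 smooth muscle and -0.04 over 6 endothelial markers. The luminal median was 0.12 on array 2 alone and 0.12 without background subtraction, so no direction is given for it. By array, the smooth muscle median was 0.32 and -0.28 and the endothelial median 0.13 and -0.12, and no direction is given for these either. Of the luminal markers Hoxb13, a prostate homeobox factor, passed as lower at -0.69 ± 0.03, where 1.3% of all detected genes passed. Cd24a was above 0 on each array, at 0.64 ± 0.54. Pbsn, the probasin gene, at 0.54 ± 1.21 and Krt18 at -0.22 ± 0.32 had arrays of opposite sign. None of 9 fibroblast markers passed, and their median of -0.26 rested on array 2, where it was -1.08 against -0.05 on array 1. Their part in the receptor values, and that of the pools' immune cells, was not tested.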

How the data were processed

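RNA was extracted with Trizol and 100 ng used for labelling by an Agilent low-input kit for 2 dyes, per the labels' protocols. The deposited scanner files, which name Feature Extraction 11.0.1.1, hold median spot and local background intensities, neither corrected nor normalized. Their log10 ratio of Cy5 over Cy3 and its error come from processed intensities that the scanner software had background-subtracted and dye-normalized, per the file headers. The deposited value table holds log2 ratios of 8533 probes that matched the scanner ratio (r and slope 1, median 0). No source used here gives the filter behind it.

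Here limma 3.58.1 in R 4.3.3 corrected the median intensities by normexp with an offset of 50, which draws ratios of dim probes towards 0, and normalized each array by loess, with control spots and outliers given weight 0. Medians stand in for the planned means, which the files as used here do not hold. Non-control spots numbered 43379 per array (41174 probes), 157 and 177 of them outliers, and 0 saturated. Ratios were turned to transgenic over wild type by the dyes in the labels. Probes were named by accession from a RefSeq table of GRCm38.p6, and a gene took its brightest detected probe. With a pair of technical repeats no test was run; their number and the weak Cy5 signal of array 2 limit the precision. All 10 genes are named with every probe, and of the lists up to 4 detected genes with the largest absolute mean ratio and every gene past 1.5-fold on each array. The basal, smooth muscle, fibroblast, endothelial and mast cell lists are the exception. For them counts or medians are given and no gene is named. Lyz2, Apoe, Cd52 and a few genes not detected are named besides, chosen after their values were seen. The members and lists were chosen with earlier results of these data known. The size rule alone was tried on simulated ratios. Normalization, detection and naming of probes were not tried in that way. Python 3.11.15, pandas 2.3.3 and matplotlib 3.10.9 made tables and figures. The alternatives are given in the closing section.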

Additional observations from a re-analysis of the deposited data

How the results depend on the processing

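Of the 8 detected genes 1 was lower by 1.5-fold on each array, as 1.3% of all detected genes were. The count was 2 with a normexp offset of 16 (2.30% of all), 0 without background subtraction (0.910%), 4 with median centring in place of loess (5.31%), 0 with scaling between arrays (1.28%), 5 by the scanner software's ratio (6.01%), 2 of 3 by the authors' deposited value table (1.94%), 0 of 3 among genes well above background in both pools (1.24%) and 0 at 2-fold (0.355%). Using 1 array alone gave 1 on array 2 (15.0%) and 4 on array 1 (5.35%). The median ratio of the 8, -0.48 beside -0.06 for all detected genes, was -0.65 beside -0.08 with an offset of 16, -0.81 beside -0.57 with median centring, -0.93 beside -0.11 by the scanner software and, for 3 genes, -0.88 beside -0.01 in the authors' deposited table. Averaging detected probes and dropping the detection filter left the count at 1, the gene being Mrc1. The count of genes passing as higher was 0 in each alternative. No paired analysis was possible because the 2 arrays hold the same pair of pools. The signal over background limits these results: on array 2 the transgenic signal of 3 of the 14 probes was well above background.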
